A study of Mus musculus with 8 samples.

Results

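Aminoacyl-tRNA synthetases are the enzymes that join each amino acid to its transfer RNA, the step that sets which amino acid a codon brings into a protein. Most amino acids have a cytosolic enzyme and a separate mitochondrial enzyme, both encoded in the nucleus, and the symbol of the mitochondrial enzyme usually ends in 2. Several cytosolic synthetases sit together in the multi-synthetase complex, held by the scaffold proteins Aimp1, Aimp2 and Eef1e1. Many cytosolic synthetase genes are known targets of ATF4, a transcription factor made when cells sense uncharged transfer RNA or other stress.

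The genes described here were chosen by symbol: a capital letter followed by ars, with or without a final 1 or 2, and in addition Eprs, Farsa, Farsb, Tarsl2 and the 3 scaffolds. This gave 36 of the 17097 genes represented on the array, with 62 probe sets in all. They comprised 18 cytosolic synthetases, 15 mitochondrial synthetases and the 3 scaffolds. Aimp2 and Tarsl2 end in 2 but are a scaffold and a cytosolic enzyme, and were counted as such. Gars and Kars, counted as cytosolic, each also give rise to the mitochondrial form of their enzyme.

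Gene expression was measured on 8 Affymetrix arrays of total RNA from mouse acute myeloid leukaemia (AML) cells. By their labels, the 4 arrays named Trib1 hi hold cells expressing the homeobox factor Hoxa9 together with the pseudokinase Trib1, and the 4 named Trib1 null hold cells expressing Hoxa9 without Trib1. The signals of both genes go against these labels, as given below. Both groups come from leukaemia that arose in mice with both copies of Trib1 knocked out, and were cultured without treatment in medium with 10% serum and 5 ng/ml of the cytokine IL-3. The labels name no separate animals, clones or cultures within a group, so the p-values measure the spread between these arrays, which may be technical, and effects of Trib1 and other differences between the cell lines cannot be told apart.

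The values are MAS5 intensities, a brightness on a linear scale, and differences are fitted log2 values of the arrays labelled Trib1 hi minus those labelled Trib1 null. A gene is called higher or lower where limma's test gave an adjusted p under 0.05 over the 12250 genes tested. All 36 genes passed the filter on dim genes. Intensities under 500 could not be compared reliably, because the arrays differed in that range: the background control GC25 read 379 on Trib1 hi 3 and 335 on Trib1 null 1 but 11.4 to 15.1 on the other arrays labelled Trib1 hi and 149 to 264 on the other arrays labelled Trib1 null. Between 17.7% and 23.2% of probe sets exceeded 500. Folds were computed after raising values under 500 to 500. Where 1 group lay under 500 on some or all of its arrays, they are lower bounds written "at least". Trib1 itself read 304, 223, 212 and 206 in the group labelled Trib1 null and only 7.13, 7.13, 122 and 5.92 in the group labelled Trib1 hi, against the labels but in this unreliable range, and no source at hand says whether its probe set lies in the deleted part of the gene. Hoxa9, which both groups are labelled as expressing, read 14.3, 14.3, 391 and 10.0 where the label is Trib1 hi and 969, 1075, 1031 and 1020.1 where it is Trib1 null, also against the labels for the first group. No source at hand says whether these probe sets match any introduced Trib1 or Hoxa9 sequence. Low signals may therefore not show what the cells were made to express. Groups are called by their labels throughout. Of 8 myeloid markers, 5 exceeded 500 on all arrays, and the summed signal of the list was 41342 to 57352 in the group labelled Trib1 hi and 40335 to 45349 in the other group. Within the list 3 genes were called higher and 3 lower: the granule protein genes Mpo (at least 10.3-fold) and Elane (5.58-fold) and the factor Cebpa (1.80-fold) were higher, while the integrin Itgam was 3.08-fold lower, the receptor Csf3r at least 1.65-fold lower and the factor Spi1 at least 1.61-fold lower. All 4 measured erythroid and all 7 measured lymphoid markers lay under 500 on all 8 arrays, as did 7 of 8 fibroblast and endothelial markers. The list of mast cell and basophil markers summed to 22869 to 31837 against 7224 to 7649, mostly through Cpa3, a carboxypeptidase of mast cells (23607 ± 4093 against 1385 ± 22.4, SD, n = 4), with 4 of its 8 genes under 500 on all arrays. Its other bright genes went opposite ways, Gata2 2.41-fold higher and Mcpt8 1.74-fold lower. The part of these marker differences in the results below was not tested.

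Cytosolic synthetase transcripts were higher in the arrays labelled Trib1 hi. Of the 18 cytosolic genes, 14 were called higher and 2 lower, and all 3 scaffolds were called higher. Of the 15 mitochondrial genes, 1 was called higher and 3 lower, and 13 were under 500 on some array. Fewer cells of a type and less RNA per cell cannot be told apart in such bulk samples. Over all 36 genes this made 18 called higher (Benjamini-Hochberg over all genes), against 11.1% of all genes tested, and 5 called lower, against 19.7% of all genes tested. Over all genes the balance of the calls moved with the scaling, from 1363 higher and 2409 lower here to 3357 and 3352 after quantile normalization, under which all 14 cytosolic and 3 scaffold increases were kept and 9 in place of 1 of the 15 mitochondrial genes were called higher. The groups did not overlap for 18 of the 36 genes in the upward direction, against 13.5% of all genes tested, and for 2 in the downward direction, against 15.8%. The median log2 difference was 1.11 for the cytosolic genes, 1.01 for the scaffolds and 0.28 for the mitochondrial genes, beside 0.04 for all genes tested. The mitochondrial median changed sign without Trib1 hi 3 (-0.68, beside -0.32 for all genes) and without Trib1 null 3 (-0.07), whereas those of the cytosolic genes and scaffolds stayed at 1.14 and 1.06 and at 1.13 and 1.01. The mitochondrial median also changed sign with the mean of a gene's probe sets (-0.07, beside 1.12 for the cytosolic genes). It was 0.03 without Trib1 null 2 and 0.63 after quantile normalization. Bright genes were called more often. Among the 4465 genes above 500 on all 8 arrays, 25.9% were called higher and 25.8% lower, with a median difference of 0.02. Of the 36 genes, 21 were this bright, and 17 of those were called higher and 2 lower, with a median difference of 1.01.

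**Figure D1:**
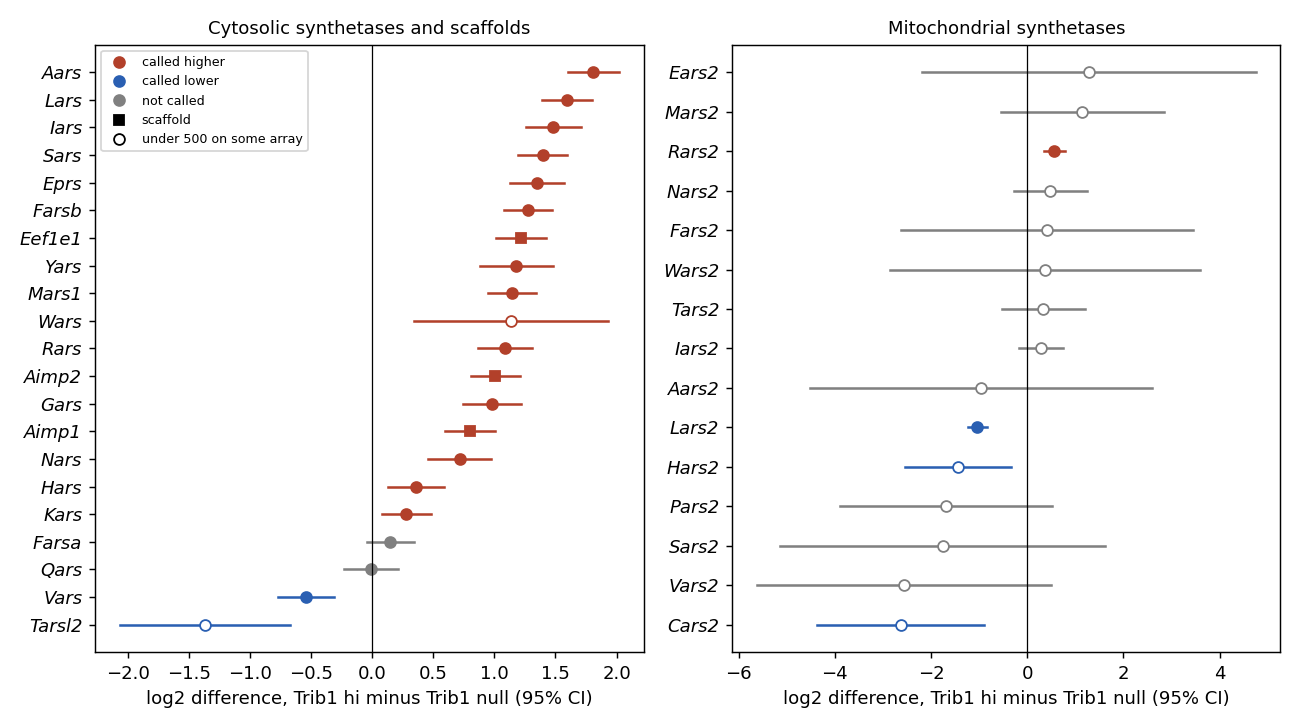
Fitted log2 difference (arrays labelled Trib1 hi minus arrays labelled Trib1 null, 4 each) with its 95% confidence interval for the 36 genes, cytosolic synthetases and scaffolds on the left and mitochondrial synthetases on the right, on separate horizontal scales. Open symbols mark genes under 500 on some array. On the left, 17 of 21 genes were called higher, and on the right most intervals are wide and span 0.

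Aars, which charges tRNA with alanine, had the largest difference of the cytosolic genes. The group labelled Trib1 hi read 5863, 5786, 4189 and 5353, and the group labelled Trib1 null 1400.5, 1564, 1595 and 1439. Values below are given in this order, arrays 1 to 4 of each group. The groups lay far apart, with the lowest array labelled Trib1 hi well above the highest of the other group. Aars rose 3.51-fold (log2 difference 1.81, SE 0.10, adjusted p = 1.18e-15).

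Lars, the leucine enzyme of the complex, read 7339, 7255, 5240.2 and 6796 against 2152, 2223, 2225 and 2156. The arrays labelled Trib1 null differed from each other by little, and Lars rose 3.02-fold (log2 difference 1.59, SE 0.10, adjusted p = 1.85e-14). Iars, the isoleucine enzyme of the complex, read 11163, 11257, 7573 and 10616 against 3326, 3804, 3511 and 3726. It rose 2.79-fold (log2 difference 1.48, SE 0.11, adjusted p = 1.43e-12). In both genes Trib1 hi 3 was the lowest of its group and still lay above all arrays labelled Trib1 null.

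Sars, which charges serine and also supplies the seryl-tRNA from which selenocysteine is made, read 7448, 7719.7, 5565 and 7362 against 2544, 2724, 2689.7 and 2638. It rose 2.63-fold (log2 difference 1.39, SE 0.10, adjusted p = 4.88e-13). Eprs, a fused enzyme that charges both glutamate and proline, read 8738, 8406, 5788 and 8272 against 3025, 3149.9, 2759 and 3162. It rose 2.55-fold (log2 difference 1.35, SE 0.11, adjusted p = 7.78e-12). Here too the groups did not overlap and Trib1 hi 3 was the lowest of its group.

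Further cytosolic genes rose by 1.64-fold to 2.42-fold. Farsb, a subunit of the phenylalanine enzyme, rose 2.42-fold (log2 difference 1.27, adjusted p = 1.63e-12). Yars, the tyrosine enzyme, rose 2.27-fold (1.18, 7.62e-08) and Mars1, the methionine enzyme, 2.22-fold (1.15, 1.58e-11). Rars, the arginine enzyme, rose 2.12-fold (1.09, 7.98e-10) and Gars, the glycine enzyme, 1.98-fold (0.98, 3.20e-08). Nars, the asparagine enzyme, rose 1.64-fold, from 8499 ± 669 to 14088 ± 2293 (SD, n = 4, log2 difference 0.72, adjusted p = 2.67e-05). In these 6 genes the groups did not overlap.

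The smallest increases belonged to the histidine and lysine enzymes. Hars read 1364 ± 47.4 against 1061 ± 28.4 (SD, n = 4) and rose 1.29-fold (log2 difference 0.36, adjusted p = 0.0120, and 0.0538 without Trib1 null 3). Kars, which also supplies the mitochondrial lysine enzyme, read 4149, 4209.96, 3146 and 4076 against 3149, 3282, 3134 and 3168. Trib1 hi 3 fell within the range of the arrays labelled Trib1 null, whereas the other 3 lay above it. Its 1.22-fold increase (log2 difference 0.28, adjusted p = 0.0253) was lost in 10 of 17 alternatives, among them leaving out any of Trib1 hi 1, 2 or 4 (0.0940, 0.0921 and 0.0832) or of Trib1 null 1, 3 or 4 (0.0509, 0.0627 and 0.0537).

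Wars, the tryptophan enzyme, was the only dim gene among the cytosolic increases. It read 297, 394, 755 and 452 against 296, 122, 198 and 231, so 1 array of 8 exceeded 500 and the groups were separated by less than 1 unit of intensity. No fold is given. The log2 difference of 1.14 (SE 0.39, adjusted p = 0.0243) was lost in 9 of 17 alternatives, among them leaving out Trib1 hi 2, 3 or 4 (0.0549, 0.0508 and 0.0882) or Trib1 null 2 (0.0714).

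**Figure D2:**
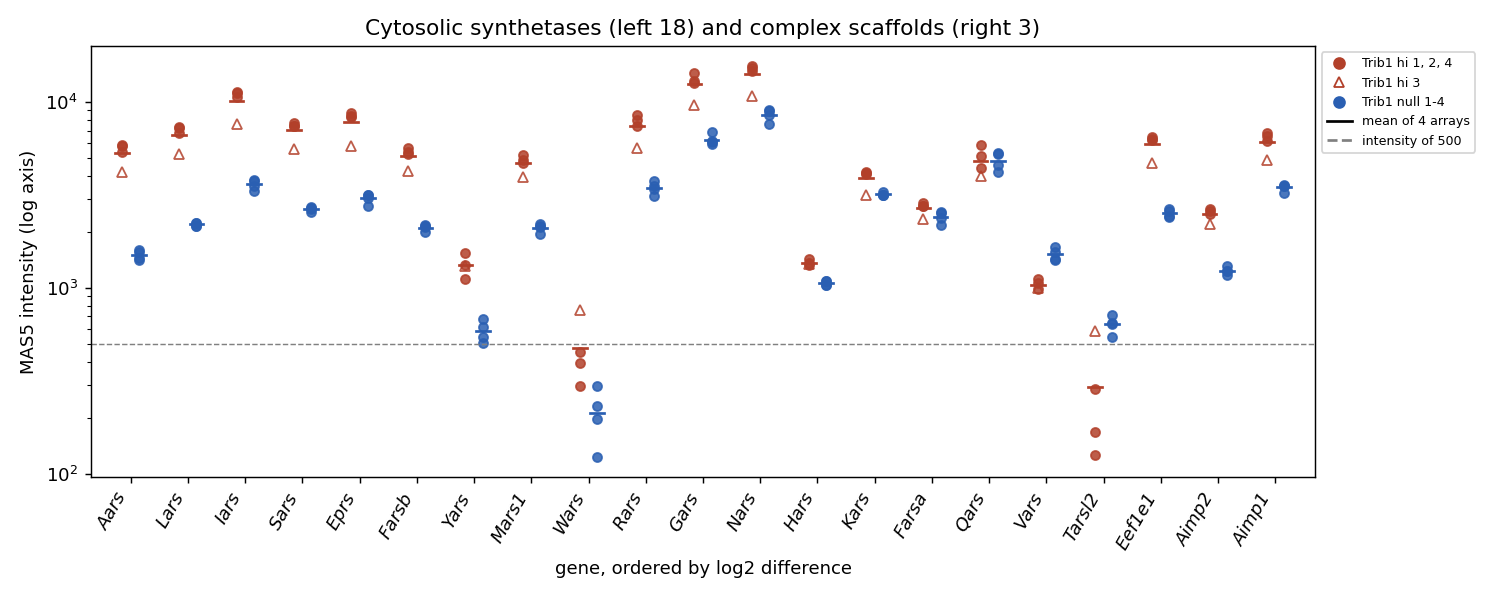
MAS5 intensity on a log axis for each of the 8 arrays, for the 18 cytosolic synthetases ordered by log2 difference and then the 3 scaffolds. Red marks arrays labelled Trib1 hi (the triangle is Trib1 hi 3), blue arrays labelled Trib1 null, short lines are means of 4 arrays and the dashed line is an intensity of 500. Aars reads 4189 or more in the first group and 1595 or less in the second, and Vars and Tarsl2 read lower in the first group.

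Trib1 hi 3 stood lowest of its group for 15 of the 18 genes called higher. Across the 16 cytosolic genes above 500 on all arrays, the median log2 value relative to the mean of the arrays labelled Trib1 null was 1.20, 1.12, 0.81 and 1.17 on Trib1 hi 1 to 4, and between -0.08 and 0.06 on the arrays labelled Trib1 null. Over all 4465 bright genes the same measure was 0.08, 0.06, -0.13 and 0.08, so Trib1 hi 3 also read lower in general. For the 17 bright genes called higher, the median coefficient of variation was 14.0% in the group labelled Trib1 hi and 4.91% in the group labelled Trib1 null. Without Trib1 hi 3, 18 of the 36 genes were again called higher, 17 of them the same, with Farsa gained (adjusted p = 0.0198) and Wars lost.

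The 3 scaffold genes rose as well. Eef1e1, a small complex protein related to an elongation factor, read 6431, 6327, 4671 and 6252 against 2443, 2661, 2395 and 2589. It rose 2.33-fold (log2 difference 1.22, SE 0.10, adjusted p = 1.21e-11). Trib1 hi 3 was again the lowest of its group, and the groups did not overlap.

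Aimp2, which holds several synthetases in the complex, read 2642, 2485, 2212 and 2581 against 1303, 1224, 1225.5 and 1165. It rose 2.01-fold (log2 difference 1.01, SE 0.10, adjusted p = 7.14e-10). Aimp1, which binds tRNA and can be cleaved to a cytokine, read 6169, 6772, 4875 and 6512 against 3243, 3525, 3572 and 3513. It rose 1.74-fold (log2 difference 0.80, SE 0.10, adjusted p = 9.14e-08), and the groups did not overlap in either gene.

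Counting the complex as a whole, 9 of its 10 measured genes were called higher and 0 lower, and the median difference was 1.12. All 10 were above 500 on every array, where 25.9% of genes were called higher. The exception was Qars, the glutamine enzyme. It read 4405, 5099, 3984 and 5819 against 4173, 5322, 4579 and 5220.4, with fully overlapping groups. The log2 difference was -0.01, with a 95% confidence interval of -0.23 to 0.22 (adjusted p = 0.977). Synthetases fall into 2 structural classes with unrelated catalytic folds. Of 8 cytosolic class I genes 6 were called higher and 1 lower, and of 9 cytosolic class II genes 7 were called higher and 1 lower, leaving out Eprs, which carries an active site of either class.

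A list of cytosolic synthetases described elsewhere as induced by ATF4, compiled from general knowledge with earlier results of these data known, held 10 measured genes (Aars, Eprs, Gars, Iars, Lars, Mars1, Nars, Sars, Wars and Yars). All 10 were called higher, against 11.1% of all genes and 25.9% of bright genes, although the call of the dim gene Wars was not stable, and their log2 differences ran from 0.72 to 1.81 around a median of 1.26. The other 8 cytosolic genes (Farsa, Farsb, Hars, Kars, Qars, Rars, Tarsl2 and Vars) had 4 called higher and 2 lower, with a median of 0.22 and a range of -1.37 to 1.27. The transcript of Atf4 itself read 19577 ± 3657 against 6547 ± 397 (SD, n = 4) and rose 2.95-fold (adjusted p = 1.49e-11). Because the list was compiled with results known, its counts and medians are a description only. Whether ATF4 had a part in these differences was not tested.

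ATF4 binds, with a C/EBP partner, a composite element whose core is commonly written TGATGNAA. This core was searched on both strands (TTNCATCA on the other) of the RefSeq promoter windows of GRCm38.p6, each running from 250 bases before to 50 after a transcript start. Windows were at hand for 28 of the 36 genes, 12 of them cytosolic and 13 mitochondrial, and 4 genes held the core: Aars, Gars, Iars and Yars. The core was present in 3.97% of all 32851 windows and in 4.51% of all 27025 genes with a window. All 4 genes were called higher, as were 14 of the 18 cytosolic genes, against 11.1% of all genes and 25.9% of bright genes. They are also on the list above. That list was compiled as genes described as induced by ATF4, with results known, so this overlap is a description only. Eprs, Mars1 and Sars, also listed and called higher, had a window without the core. No window was at hand for Lars, Nars and Wars of the list. None of the 13 mitochondrial genes with a window held the core, which 4.51% of all genes hold, so little can be read from its absence there. Part of each window is shown, from 157, 75, 40 and 42 bases before the start in Aars, Gars, Iars and Yars to base 30 after it, with the core in capitals. Aars holds it at 2 places, beginning 112 bases before the start and at base 10 after it. Gars holds it 30 bases before the start, Iars at base 8 and Yars at base 4. The first lies at chr8:111033685-111033871, the second at chr6:55037926-55038030, the third at chr13:49682090-49682159 and the fourth at chr4:129189861-129189932, all on the plus strand.
Aars: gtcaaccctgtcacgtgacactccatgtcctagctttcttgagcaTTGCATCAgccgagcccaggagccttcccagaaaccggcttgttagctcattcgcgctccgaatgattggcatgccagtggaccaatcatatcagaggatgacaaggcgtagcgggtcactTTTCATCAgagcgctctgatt
Gars: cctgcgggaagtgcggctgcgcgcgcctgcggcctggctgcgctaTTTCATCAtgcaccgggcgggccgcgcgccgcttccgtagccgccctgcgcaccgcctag
Iars: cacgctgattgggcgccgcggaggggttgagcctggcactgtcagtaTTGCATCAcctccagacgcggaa
Yars: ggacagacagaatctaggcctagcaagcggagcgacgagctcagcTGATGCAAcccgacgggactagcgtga

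The E-box CACGTG, bound by MYC and related factors, reads the same on both strands and was present in 7.15% of all windows and 8.09% of genes. Among the 28 genes it was found in 4, Aars, Farsb, Iars and Ears2. The Aars copy stands near the left end of the stretch shown above. These are matches of letters and say nothing of binding in these cells.

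Vars and Tarsl2 were the cytosolic genes that fell. Vars, the valine enzyme, read 1063, 987, 996 and 1106 against 1422, 1660.5, 1409 and 1549.8. The groups did not overlap, and Vars fell 1.45-fold (log2 difference -0.54, SE 0.11, adjusted p = 0.000289). The gene lies on chromosome 17, where 44.9% of the 633 genes tested were called lower, against 19.7% of all genes tested. The median log2 difference on this chromosome was -0.47. Of its 232 genes above 500 on all arrays, as Vars was, 155 were called lower, against 25.8% of bright genes on all chromosomes. The mitochondrial genes Vars2 and Aars2 lie on the same chromosome and were dim. Whether the difference of Vars belongs to its chromosome was not tested.

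Tarsl2, a second cytosolic threonine enzyme, read 167, 127, 582 and 286 against 714, 546, 641 and 643. All arrays labelled Trib1 null exceeded 500 but only Trib1 hi 3 did so in the other group. It fell at least 1.22-fold (log2 difference -1.37, SE 0.34, adjusted p = 0.00201), and the call was lost with a floor of 500 (0.0725) and with unmoderated variances (0.112).

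The phenylalanine enzyme is built of an alpha subunit, Farsa, and a beta subunit, Farsb. Farsa read 2741, 2762, 2329 and 2862 against 2185, 2563, 2520.5 and 2363, with overlapping groups and a log2 difference of 0.15 (95% confidence interval -0.05 to 0.34, adjusted p = 0.291). Farsb read 5619, 5393, 4219.9 and 5261 against 2003, 2117, 2167 and 2138. The log2 ratio of Farsb to Farsa within an array was higher in the arrays labelled Trib1 hi by 1.12 (range 0.86 to 1.03 against -0.28 to -0.12). This ratio and those of Lars to Lars2 and Rars to Rars2 were chosen after the values were seen and are a description with no test, and only their change between groups can be read, not their level.

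Among mitochondrial enzymes only Lars2 and Rars2 exceeded 500 on all 8 arrays, and they went opposite ways. Lars2, the mitochondrial leucine enzyme, read 2874, 3090.3, 2519 and 3023 against 5276, 6050.3, 5955 and 6323. It fell 2.05-fold (log2 difference -1.04, SE 0.10, adjusted p = 1.35e-10) and the groups did not overlap. Rars2, the mitochondrial arginine enzyme, read 1921, 2015, 1667 and 1902 against 1323, 1288, 1180.3 and 1260.1. It rose 1.48-fold (log2 difference 0.57, SE 0.10, adjusted p = 4.91e-05), again without overlap.

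The log2 ratio of Lars to Lars2 was higher by 2.63 in the arrays labelled Trib1 hi (1.06 to 1.35 against -1.55 to -1.29). The log2 ratio of Rars to Rars2 was higher by 0.52 (1.76 to 2.14 against 1.23 to 1.66). The cytosolic leucine enzyme thus rose while the mitochondrial one fell, whereas both arginine enzymes rose.

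The other 13 mitochondrial genes lay under 500 on some or all arrays, 8 of them on every array. Cars2, the mitochondrial cysteine enzyme, read 15.9, 15.2, 439 and 98.6 against 516, 296, 358 and 390.4. Hars2, the mitochondrial histidine enzyme, read 88.6, 55.3, 508 and 175 against 505, 282, 395 and 449. In both genes Trib1 hi 3 stood far above the rest of its group. It lay within the range of the other group for Cars2 and just above the highest array of that group for Hars2. Both were called lower (log2 differences -2.63 with SE 0.85 and -1.44 with SE 0.54, adjusted p = 0.0168 and 0.0401). The Cars2 call was lost in 6 of 17 alternatives, among them leaving out Trib1 hi 1 (0.0554) or Trib1 null 1 (0.0557), and with a floor of 500 (0.784). The Hars2 call was lost in 14, including without Trib1 hi 1, 2 or 4 (0.131, 0.150 and 0.0602) and without Trib1 null 1, 3 or 4 (0.101, 0.0681 and 0.0903).

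The remaining 11 mitochondrial genes were not called: Aars2, Ears2, Fars2, Iars2, Mars2, Nars2, Pars2, Sars2, Tars2, Vars2 and Wars2. Their log2 differences ran from -2.56 (Vars2, 95% confidence interval -5.62 to 0.50) to 1.28 (Ears2, -2.19 to 4.75), so large changes in either direction could not be told from none. Those below 0 were Vars2 (adjusted p = 0.233), Sars2 (-1.76, 0.512), Pars2 (-1.69, 0.290) and Aars2 (-0.95, 0.774). Those above 0 were Iars2 (0.28), Tars2 (0.34, adjusted p = 0.640), Wars2 (0.37, 0.914), Fars2 (0.41, 0.901), Nars2 (0.48, 0.415), Mars2 (1.15, 0.368) and Ears2 (0.668). Iars2, the mitochondrial isoleucine enzyme, read 462, 492, 861 and 679 against 590, 424, 430 and 562, with overlapping groups (adjusted p = 0.419). Trib1 hi 3 was the highest array of its group in all 13 dim mitochondrial genes, and Trib1 null 1 the highest of its group in 12. These are the arrays with the highest background control. After quantile normalization, 8 of the 11 were called higher (Aars2, Ears2, Fars2, Iars2, Mars2, Nars2, Tars2 and Wars2) and Vars2 lower, and Aars2 changed sign (-0.95 to 0.79). Without Trib1 hi 3, Pars2, Sars2 and Vars2 were called lower (adjusted p = 0.0369, 0.0105 and 0.00156). The dim mitochondrial genes thus have no settled direction in these data.

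**Figure D3:**
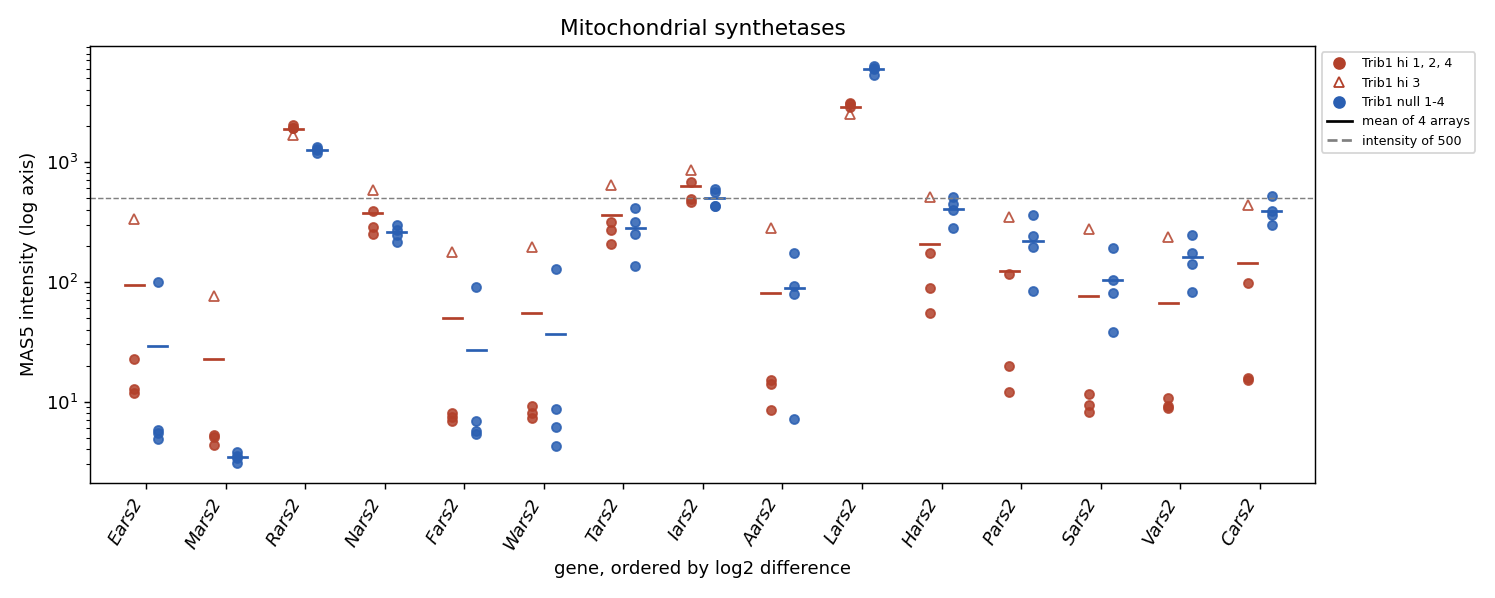
MAS5 intensity on a log axis for each of the 8 arrays, for the 15 mitochondrial synthetases ordered by log2 difference, with symbols as in the plot of cytosolic values. Lars2 and Rars2 lie above the dashed line at 500 on all arrays. In the other 13 genes the triangle of Trib1 hi 3 stands above the other arrays of its group.

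Different probe sets of a gene gave the same picture where they were bright. In a fit of single probe sets, 6 of the 62 were too dim to be tested. Of the others, 25 were called higher, against 8.17% of all probe sets tested, and 6 lower, against 15%. Of 8 genes with at least 2 probe sets above 500 on all arrays, 7 (Aars, Aimp2, Eprs, Farsb, Iars, Nars and Sars) had each such probe set called higher and 1 (Qars) had none called, and the largest gap within a gene was 0.23 on the log2 scale. The second probe set of Aars read 2484 ± 336 against 698 ± 47.8 (SD, n = 4), a log2 difference of 1.82 beside 1.81. Qars had in addition a dimmer probe set that was called lower (437 ± 186 against 786 ± 195, log2 difference -0.90, adjusted p = 0.00624). By their suffix, this probe set and the Qars probe set used above may also match related sequences. The same holds for the probe sets used for Aars, Farsb, Fars2, Iars, Sars, Tars2 and Wars. The other Wars probe sets, which were dim, were not called in this fit (adjusted p = 0.294 and 0.237). Of the 17 genes with several probe sets, 0 had probe sets called in opposite directions, although many of these probe sets were dim and not called or not tested.

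**Figure D4:**
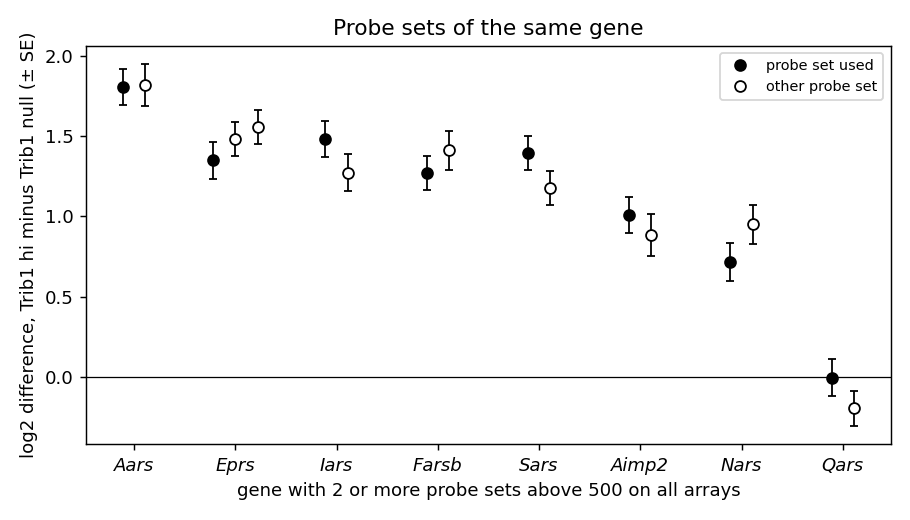
Log2 difference (arrays labelled Trib1 hi minus arrays labelled Trib1 null, 4 each) with its SE for each probe set above 500 on all arrays, for the 8 genes with 2 or more of them. Filled points are the probe sets used elsewhere. Within a gene the points differ by at most 0.23.

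Other genes of tRNA charging and use were taken from lists drawn up for these data, and their counts are to be read against 11.1% of all genes called higher and 19.7% lower, or 25.9% and 25.8% of bright genes. Of 14 tested genes of tRNA maturation and export, 9 of them bright, 7 were called higher and 2 lower. Xpot, which carries tRNA out of the nucleus, read 7050.03 ± 1156 against 2562 ± 84.8 (SD, n = 4) and rose 2.72-fold (adjusted p = 5.74e-13). Trnt1, which adds the terminal CCA to which amino acids are joined, rose 2.45-fold, and Tsen15, a subunit of the tRNA splicing endonuclease, rose at least 1.75-fold. Pop1, a protein of ribonucleases P and MRP, was dim and called lower (log2 difference -1.94, adjusted p = 0.0473). Rpp21, a protein of ribonuclease P encoded on chromosome 17, fell 1.84-fold (adjusted p = 8.97e-09).

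Of 6 genes that deliver charged tRNA to the ribosome, 2 were called higher and 0 lower, near the share of 25.9% among bright genes, as all 6 were: the mitochondrial factor Tsfm (1.57-fold, adjusted p = 2.74e-05) and Eef1d (1.31-fold, adjusted p = 0.00619). Eef1a1, the main carrier of charged tRNA in the cytosol, was not called (adjusted p = 0.856). Among 6 genes around the sensing of uncharged tRNA, 2 were called higher and 1 lower. Besides Atf4, Eif2s2, a subunit of the initiation factor eIF2, rose 1.67-fold, while Eif2ak4, the kinase GCN2 that binds uncharged tRNA, was dim and called lower (328 ± 163 against 587 ± 123, SD, n = 4, adjusted p = 0.0150).

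The selenocysteine route starts from the product of Sars. Of its 6 genes 0 were called higher and 1 lower, the kinase Pstk (at least 1.30-fold, adjusted p = 0.00101), and the median difference was -0.08. Of 4 genes of mitochondrial tRNA amidation and formylation, 1 was called higher (Qrsl1, at least 1.47-fold, adjusted p = 0.0168) and 1 lower (Mtfmt, dim, adjusted p = 0.0225). Both measured genes that remove wrongly joined amino acids, Aarsd1 and Dtd2, were not called (adjusted p = 0.428 and 0.701).

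**Figure D5:**
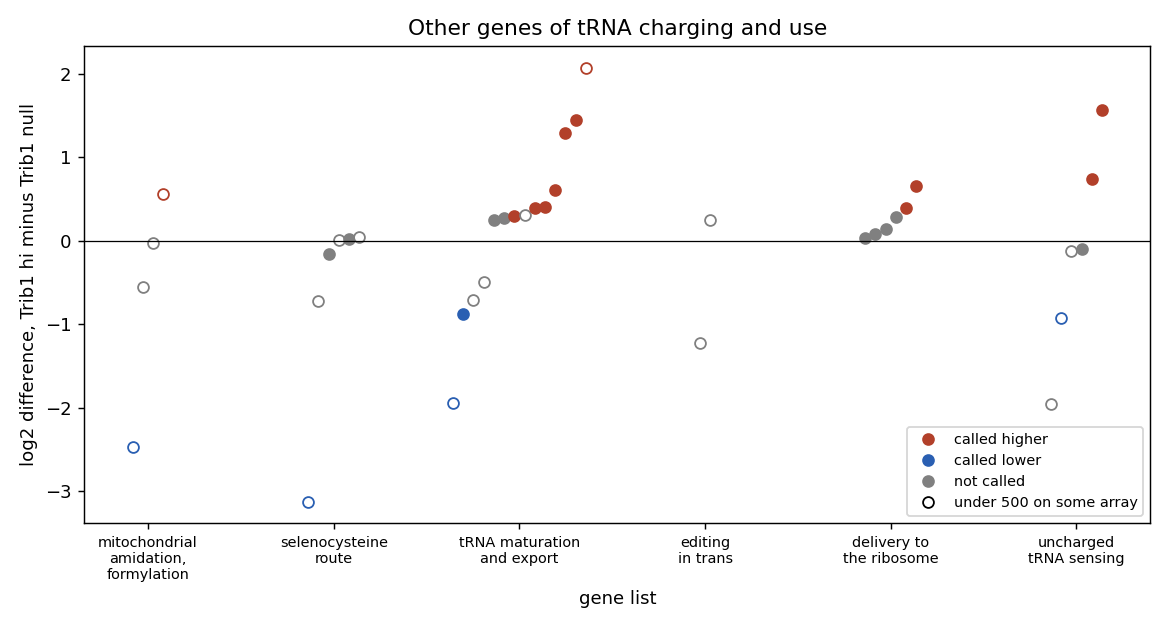
Log2 difference (arrays labelled Trib1 hi minus arrays labelled Trib1 null, 4 each) of each tested gene in 6 lists of tRNA charging and use, with genes sorted within a list. Colour gives the call and open circles mark genes under 500 on some array. The list of tRNA maturation and export holds 7 of 14 genes called higher, beside 11.1% of all genes and 25.9% of bright genes.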

How the data were processed

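The authors deposited linear intensity values for 45141 probe sets on 8 arrays, made with MAS5 per the submitters' processing notes, whose version and settings those notes do not name. With 4 arrays per group, precision is limited. Controls (104) were left out, and 28898 probe sets had 1 gene symbol and 551 several, which were not named. Of several probe sets of a gene, the one of highest mean intensity across the 8 arrays was used. Values were tested as log2(intensity + 2.71), the 25th percentile of all values, and genes with a mean over 3.01 (the 40th percentile) were kept. Fitted differences of dim genes depend on this choice. That of Cars2 was -2.63 here, -2.23 with a pseudocount of 16 and -0.01 with a floor of 500. limma 3.58.1 in R 4.3.3 (lmFit, eBayes with trend, two-sided, Benjamini-Hochberg over 12250 genes) gave each adjusted p and was tried on simulated data. The simulation drew each gene and array independently, so it did not cover the background differences that genes of an array share here. Every gene of the rule is named. Values on each array are given for the called genes with the largest difference (6 cytosolic, 4 mitochondrial), scaffolds and cytosolic genes called lower, and for Farsa, Farsb, Iars2, Kars, Qars and Wars after their values were seen. Up to 3 called genes with the largest difference are named from each other list, with Trnt1, Rpp21, Eef1a1 and those of marker lists added after their values were seen. The genes and lists were chosen with earlier results of these data known. Chromosomes and promoters are from RefSeq, GRCm38.p6. Alternatives were 2 scalings, a pseudocount of 16, a floor of 500, no filter, 2 choices of probe set, unmoderated variances, a replicate block and leaving out each array.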

Additional observations from a re-analysis of the deposited data

Results flagged for a closer look

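In 14 of 72 groups of 4 arrays (36 genes in 2 groups), 1 array stood apart from the other 3 by Dixon's criterion at 95%, which chance meets in about 1 in 20 groups. The array was Trib1 hi 3 in 11 cases and Trib1 null 1 in 3. Trib1 hi 3 stood low in 4 bright genes, Eef1e1 (4671, next 6252), Eprs (5788, next 8272), Kars (3146, next 4076) and Sars (5565, next 7362). It stood high in 7 dim mitochondrial genes, Aars2 (282, next 15.2), Ears2 (332, next 22.5), Fars2 (177, next 8.07), Mars2 (76.5, next 5.31), Sars2 (277, next 11.7), Vars2 (236, next 10.8) and Wars2 (195, next 9.25). Trib1 null 1 stood high in Ears2 (99.8, next 5.82), Fars2 (89.6, next 6.96) and Wars2 (127, next 8.73).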

How the results depend on the processing

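Of 17 alternatives, all kept the higher call of 13 genes (Aars, Aimp1, Aimp2, Eef1e1, Eprs, Gars, Iars, Lars, Mars1, Nars, Rars, Rars2 and Yars) and the lower call of Lars2 and Vars. Sars was kept in the 16 that held it, and Farsb in 16, lost where its bright probe sets were left out. Quantile normalization gave 3357 genes higher and 9 mitochondrial genes higher, and Aars2 turned to 0.79. A floor of 500 gave 1595 genes lower, 2 of the 36 genes lower and 1 mitochondrial gene lower. Unmoderated variances gave 1379, 2 and 1, the mean of probe sets 1285, 3 and 1 (with 711 genes higher), and no filter 3 of the 36 and 1 mitochondrial gene lower. Hars2 turned to 0.0021 with a floor of 500 and to 0.025 with probe sets without a suffix. Leaving out 1 array gave 1153 to 2103 genes higher, 1964 to 3768 lower, 3 to 8 of the 36 lower and 1 to 6 mitochondrial genes lower, the highest without Trib1 hi 3. The replicate block gave 18 of the 36 genes higher and 5 lower, as without it, and 1284 genes higher and 2346 lower in all. Deviations from the group mean correlated at -0.51, 0.49, -0.29 and 0.37 for numbers 1 to 4. They correlated at 0.65 between Trib1 hi 3 and Trib1 null 1, the arrays with the highest background control. Whether equal numbers mark paired arrays cannot be told from these values. Signals under 500 limit the mitochondrial genes.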
